A study of Mus musculus with 2 samples.

Results

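Nonclassical monocytes in which no transcript of Fabp4 was counted made up 199 of 3377 cells from the mouse retinal pigment epithelium (RPE) and choroid. They were taken from barcodes with at least 1500 UMIs (unique molecular identifiers, each standing for 1 captured RNA molecule) and at least 200 genes. A member had at least 2 UMIs of Treml4, Cd300e and Fcgr4 together, at least 1 UMI of Csf1r, 0 UMIs of Cd79a, Cd3e and Ncr1 and 0 UMIs of Fabp4. The Tsc1 RPE KO library gave 156 of them and the Tsc1 flox library 43. The same gate with at least 1 UMI of Fabp4 gave 331 cells, 276 in Tsc1 RPE KO and 55 in Tsc1 flox. Classical monocytes, cells with UMIs of at least 2 of F13a1, Ly6c2 and Ccr2, with Csf1r and under 2 UMIs of Treml4, Cd300e and Fcgr4 together, numbered 57 in Tsc1 RPE KO and 69 in Tsc1 flox.

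The study compared the eyes of mice that lack Tsc1 in the RPE with those of mice that keep it. The Tsc1 RPE KO mice (called KO below) carried a floxed Tsc1 allele (Tsc1tm1Djk/J) and the Best-Cre transgene, which the labels call RPE-specific, and the Tsc1 flox mice (called flox below) carried the same floxed allele and no Cre. Each library pooled 1 male and 1 female at 10 weeks of age, and live cells of the digested eye cup were sorted after the neural retina had been taken off. By those labels, no Cre was directed to the monocytes of either library. With 1 library per genotype no test between genotypes was possible, and all intervals cover counting error only.

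Nonclassical monocytes patrol the inner wall of blood vessels, crawling on the integrin LFA-1 and clearing debris from the endothelium. In mice they arise from classical monocytes through intermediate cells, under the nuclear receptor Nr4a1, and they need signals through the CSF1 receptor to survive. Classical monocytes carry Ly6C and Ccr2, leave the blood in inflammation and can become macrophages or cells that present antigen on MHC class II. Fabp4 is a fatty acid-binding protein of adipocytes, capillary endothelium and some macrophages and monocytes, and its gene is a target of the nuclear receptor PPARγ.

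The cells without Fabp4 held 1140554 UMIs in KO and 330433 UMIs in flox. Their median depth per cell was 6659.5 UMIs in KO and 8089 UMIs in flox, against 5639 and 5818 UMIs in the KO and flox cells with Fabp4 and 10032 and 10359 UMIs in the KO and flox classical monocytes. The libraries shared 182035 listed barcodes, of which 2 passed the UMI and gene minimums in both and 0 were members in both. Scrublet marked 1 of the 156 KO members and 0 of the 43 flox members as doublets. Tsc1 itself, the targeted gene, had 12 UMIs (10.5 CPM, counts per 1000000 UMIs) in the KO members and 10 UMIs (30.3 CPM) in the flox members, and reads from the 3' end lie outside the exons that Cre removes in such alleles, so these counts do not check the genotype.

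The genes of the gate stood as the gate set them, and the markers that it did not use went with the name. Levels below are CPM over the summed cells of a library. Treml4, a receptor of the TREM family, had 479 CPM in KO and 297 CPM in flox cells without Fabp4, against 16.0 CPM in KO and 8.46 CPM in flox classical monocytes. Cd300e, an activating receptor, had 138 CPM in KO and 130.1 CPM in flox cells without Fabp4, against 0 CPM in KO and 0 CPM in flox classical monocytes. Fcgr4, a mouse receptor for IgG, had 214 CPM in KO and 269 CPM in flox cells without Fabp4, against 16.0 CPM in KO and 4.23 CPM in flox classical monocytes. These values chose the cells and are given as a description.

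Ace, the angiotensin-converting enzyme, had 554 CPM in KO and 633 CPM in flox cells without Fabp4, against 117 CPM in KO and 86.0 CPM in flox classical monocytes. Eno3, a form of the glycolytic enzyme enolase, had 315 CPM in KO and 227 CPM in flox cells without Fabp4, against 17.7 CPM in KO and 7.05 CPM in flox classical monocytes. Both therefore lay with the name of nonclassical monocytes in each library. In the cells with Fabp4 every gene of the nonclassical gate and both markers except Csf1r were at a higher level. Cd300e had 318 CPM in KO and 315 CPM in flox cells with Fabp4, and Eno3 had 541 CPM in KO and 495 CPM in flox cells with Fabp4. Csf1r had 967 CPM in KO and 908 CPM in flox cells without Fabp4, against 1040.2 CPM in KO and 839 CPM in flox cells with Fabp4.

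Genes of the classical gate were present in the cells without Fabp4. Ly6c2, which encodes the Ly6C surface protein, had 361 CPM in KO and 505 CPM in flox cells without Fabp4, against 48.8 CPM in KO and 72.8 CPM in flox cells with Fabp4, while classical monocytes had 1736 CPM in KO and 1400.1 CPM in flox. Ccr2, the receptor for the chemokine CCL2, had 160.4 CPM in KO and 227 CPM in flox cells without Fabp4, against 24.1 CPM in KO and 128 CPM in flox cells with Fabp4. F13a1, the A subunit of coagulation factor XIII, had 43.8 CPM in KO and 99.9 CPM in flox cells without Fabp4, against 0.588 CPM in KO and 2.91 CPM in flox cells with Fabp4, while classical monocytes had 512 CPM in KO and 458 CPM in flox. On all 3 genes the cells without Fabp4 stood between the other sets in both libraries. The gate left classical genes free, so a cell with both sets of genes was counted as nonclassical.

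**Figure D1:**
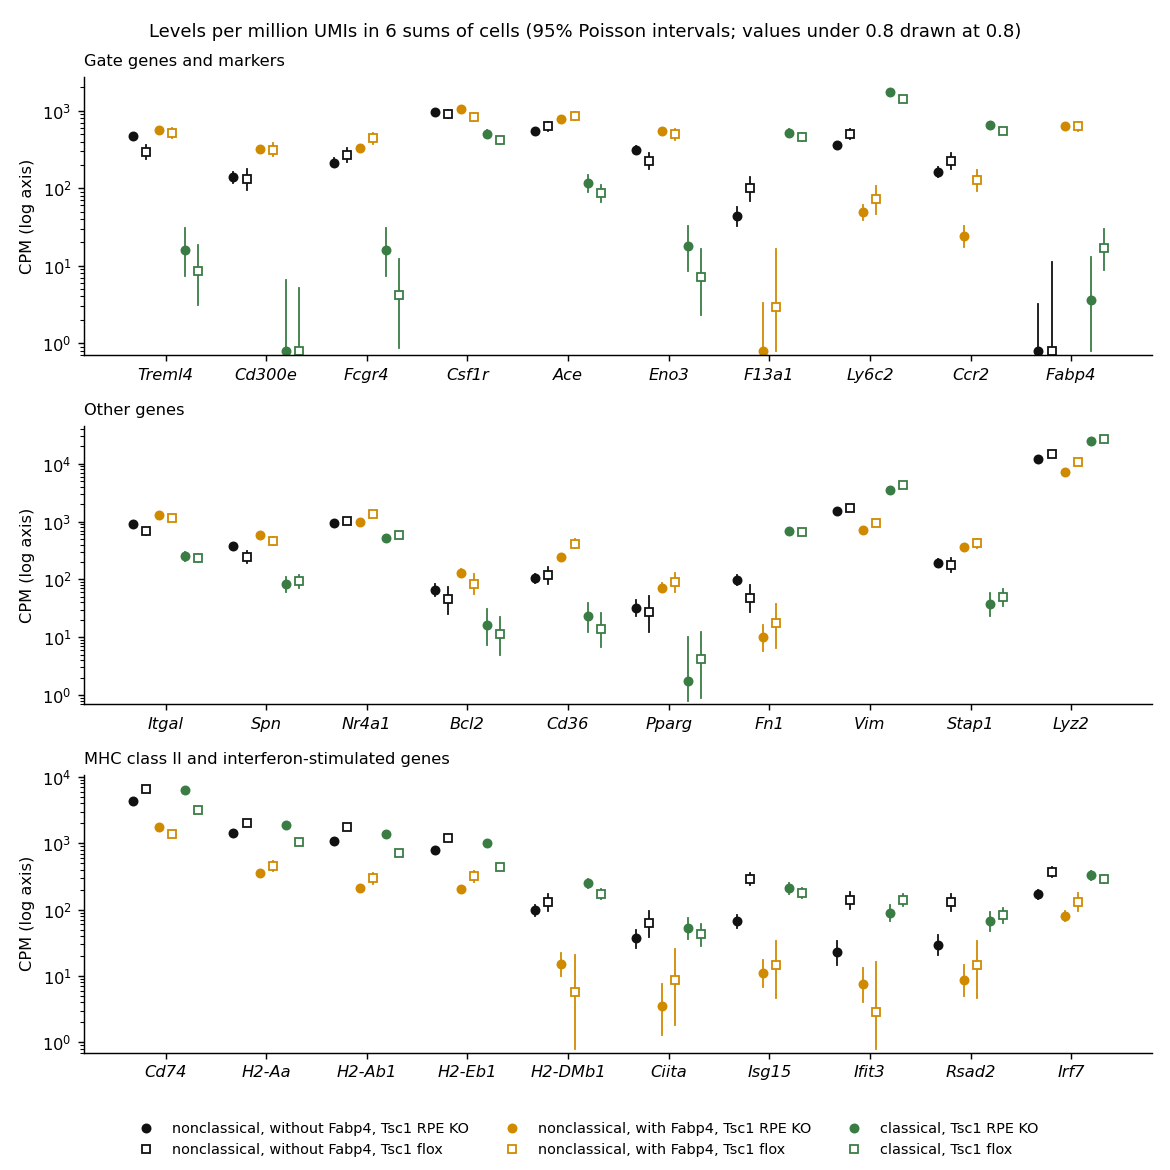
Levels (CPM, log axis) of gate genes and markers, of other monocyte genes, and of MHC class II and interferon-stimulated genes in 6 sums of cells; filled circles are Tsc1 RPE KO, open squares Tsc1 flox, bars 95% Poisson intervals, and values under 0.8 CPM are drawn at 0.8. Cells without Fabp4 (black) lie between cells with Fabp4 (amber) and classical monocytes (green) for Ly6c2, Fn1, Vim and Lyz2, and Fabp4 itself is at 0 in them.

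The share of cells without Fabp4 was 8.45% of 1847 cells in KO (exact interval 7.22 to 9.81%), against 2.81% of 1530 cells in flox (2.04 to 3.77%). Cells with Fabp4 were 14.9% in KO, against 3.59% in flox, and classical monocytes were 3.09% in KO, against 4.51% in flox. Of all nonclassical monocytes, those without Fabp4 were 36.1% of 432 in KO (31.6 to 40.8%), against 43.9% of 98 in flox. After every cell had been thinned to 1500 UMIs, 59.5% in KO and 68.4% in flox had no Fabp4 UMI left, so a count of 0 depends on depth. Fewer or more cells of a type and unequal recovery of cell types from digested tissue cannot be told apart here.

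Near the limit of the gate the cells changed in their classical genes. In KO, 32 cells had 1 UMI of Treml4, Cd300e and Fcgr4 together and lay outside, while 23 members had 2 UMIs, 23 had 3, 85 had 4 to 9 and 25 had 10 or more. In flox the same counts were 12 outside and 11, 6, 21 and 5 members. In KO, Ly6c2 stood at 1724, 566, 575, 292 and 195 CPM in these 5 steps from 1 UMI upward. H2-Aa, a chain of MHC class II, stood at 1978, 3415, 749, 1321 and 311 CPM in KO and 683, 3158, 3209, 1420.0 and 27.4 CPM in flox over the same steps. The members with the most UMIs of the gate genes had the lowest H2-Aa in each library.

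Set against classical monocytes, the cells without Fabp4 had the genes of nonclassical identity at higher levels and those of classical identity at lower levels. UMIs were summed per library and set, and 7202 genes outside the gate were tested with edgeR's quasi-likelihood test with a term for the library, so that each set was compared within the same mice. The 6 sums left 2 residual degrees of freedom. In all, 307 genes (4.26% of those tested) were higher and 296 (4.11%) lower at an adjusted p under 0.05, a call described below as a rise or a fall, and the median log2 fold of all genes was -0.01. DESeq2, which gave no adjusted p for 3356 of the genes, called 98 higher and 51 lower. Of 30 nonclassical identity genes, 6 are gate genes or markers and 23 were tested. Of these 20 rose and the other 3 did not pass, with a median log2 fold of 1.99, and 17 rose in DESeq2. A gene may stand in more than 1 list. The calls describe the other genes of cells that were chosen on the gate genes, and their error rests on 2 libraries.

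Itgal, the alpha chain of LFA-1, had 901 CPM in KO and 678 CPM in flox cells without Fabp4, against 250.0 CPM in KO and 231 CPM in flox classical monocytes (log2 fold 1.62 ± 0.12 SE, edgeR adjusted p = 1.2e-07). Spn, the sialophorin CD43 by which nonclassical monocytes are often sorted, had 383 CPM in KO and 245 CPM in flox cells without Fabp4, against 83.3 CPM in KO and 93.1 CPM in flox classical monocytes (log2 fold 1.73 ± 0.19 SE, edgeR adjusted p = 7.6e-06). The summed level of both genes was higher in the cells without Fabp4 in each library. Nr4a1 had 945 CPM in KO and 1017 CPM in flox cells without Fabp4, against 514 CPM in KO and 588 CPM in flox classical monocytes (log2 fold 0.75 ± 0.11 SE, edgeR adjusted p = 0.00031). Cx3cr1, the receptor for fractalkine, had 568 CPM in KO and 396 CPM in flox cells without Fabp4, against 275 CPM in KO and 295 CPM in flox classical monocytes (log2 fold 0.66 ± 0.15 SE, edgeR adjusted p = 0.0071).

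Dusp16, a phosphatase of MAP kinases, had 192 CPM in KO and 166 CPM in flox cells without Fabp4, against 7.09 CPM in KO and 11.3 CPM in flox classical monocytes (log2 fold 4.14 ± 0.29 SE, edgeR adjusted p = 4.4e-08). Of the identity genes tested it had the largest log2 fold. Tcf7l2, a transcription factor of Wnt signalling, had 128 CPM in KO and 109 CPM in flox cells without Fabp4, against 12.4 CPM in KO and 12.7 CPM in flox classical monocytes (log2 fold 3.17 ± 0.30 SE, edgeR adjusted p = 1.6e-06). Tgm2, a transglutaminase, had 170.1 CPM in KO and 72.6 CPM in flox cells without Fabp4, against 8.86 CPM in KO and 1.41 CPM in flox classical monocytes (log2 fold 4.47 ± 0.37 SE, edgeR adjusted p = 2.7e-07). S1pr5, a sphingosine-1-phosphate receptor that nonclassical monocytes of mice need to leave the bone marrow, had 138 CPM in KO and 106 CPM in flox cells without Fabp4, against 24.8 CPM in KO and 4.23 CPM in flox classical monocytes (log2 fold 3.06 ± 0.37 SE, edgeR adjusted p = 2.5e-05). The levels of Tgm2 and S1pr5 in flox classical monocytes rest on few UMIs.

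Further genes had 0 UMIs in the classical monocytes of both libraries. Against a floor of 3 UMIs over both classical sums, Ccdc192 was at least 11-fold higher, Jade2 at least 10.7-fold, Adrb1, the beta-1 adrenergic receptor, at least 7.50-fold, Vegfc, a growth factor of lymphatic vessels, at least 7.21-fold and Setbp1 at least 5.48-fold. Myoc and Cnga1 were also called, but all of their UMIs stood in 1 KO member each.

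The groups by role followed a similar split. Of 16 survival genes tested 4 rose and the others did not pass (median log2 fold 0.35). Bcl2, which restrains apoptosis, had 64.9 CPM in KO and 45.4 CPM in flox cells without Fabp4, against 16.0 CPM in KO and 11.3 CPM in flox classical monocytes (log2 fold 1.89 ± 0.34 SE, edgeR adjusted p = 0.0014). The other 3 were Bcl2a1b, Bcl2a1d and Bcl2a1a, near-identical copies between which reads can be split, with log2 folds of 3.64, 3.17 and 3.13. Of 20 genes of crawling, adhesion and chemotaxis 11 rose and 3 fell (median 0.82). C5ar1, the receptor for the complement fragment C5a, had 146 CPM in KO and 51.4 CPM in flox cells without Fabp4, against 21.3 CPM in KO and 12.7 CPM in flox classical monocytes (log2 fold 2.46 ± 0.32 SE, edgeR adjusted p = 5.1e-05), and Pecam1, an adhesion molecule of vessel walls and leukocytes, had 63.1 CPM in KO and 12.1 CPM in flox cells without Fabp4, against 5.32 CPM in KO and 5.64 CPM in flox classical monocytes (log2 fold 2.57 ± 0.50 SE, edgeR adjusted p = 0.0025, DESeq2 adjusted p = 0.0869). The 9 endothelial markers listed, Pecam1 among them, were summed at 97.3 CPM in KO and 87.8 CPM in flox cells without Fabp4, against 23 CPM in KO and 24.0 CPM in flox classical monocytes. Both markers tested, Flt1 and Pecam1, rose in edgeR and 0 passed in DESeq2. The part of endothelial RNA in the Pecam1 difference was not tested. Most of that difference stood in KO, and the flox levels of Pecam1 rest on few UMIs. Of 15 genes of lipid handling 6 rose and 1 fell (median 0.75). Cd36, a scavenger receptor that takes up lipids, had 103 CPM in KO and 118 CPM in flox cells without Fabp4, against 23 CPM in KO and 14.1 CPM in flox classical monocytes (log2 fold 2.58 ± 0.33 SE, edgeR adjusted p = 4.5e-05). Pparg, which encodes PPARγ, had 32.4 CPM in KO and 27.2 CPM in flox cells without Fabp4, against 1.77 CPM in KO and 4.23 CPM in flox classical monocytes (log2 fold 3.21 ± 0.56 SE, edgeR adjusted p = 0.0011). Its levels in classical monocytes rest on few UMIs.

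Of 27 transcription factors of monocytes 6 rose and 3 fell (median 0.14). Hes1, a target of Notch signalling, had 384 CPM in KO and 629 CPM in flox cells without Fabp4, against 121 CPM in KO and 97.3 CPM in flox classical monocytes (log2 fold 2.08 ± 0.20 SE, edgeR adjusted p = 2.1e-06), and Pou2f2, which encodes OCT2, had 1322 CPM in KO and 1180.3 CPM in flox cells without Fabp4, against 495 CPM in KO and 541 CPM in flox classical monocytes (log2 fold 1.18 ± 0.11 SE, edgeR adjusted p = 7.6e-07). Of 14 MHC class I genes 4 rose and the others did not pass (median 0.31), H2-K1 among them (log2 fold 0.72 ± 0.10 SE, edgeR adjusted p = 0.00015). Of 20 lysosome genes 2 rose and 2 fell, with Ctsb, the protease cathepsin B, at 1241 CPM in KO and 1129 CPM in flox cells without Fabp4, against 480.4 CPM in KO and 437 CPM in flox classical monocytes (log2 fold 1.27 ± 0.10 SE, edgeR adjusted p = 2.7e-07). Of 15 genes of the TSC complex and mTORC1 pathway 1 rose, Ddit4, an inhibitor of mTORC1 that responds to stress (log2 fold 1.19 ± 0.26 SE, edgeR adjusted p = 0.007, DESeq2 adjusted p = 0.118), and of 18 genes of glycolysis 1 rose, the lactate transporter Slc16a3 (log2 fold 1.40 ± 0.23 SE, edgeR adjusted p = 0.00069). For both of these lists the share called is near that of all genes, and 0 of their genes fell in edgeR at the adjusted threshold, 1 and 2 at an unadjusted p under 0.05, and 0 in DESeq2.

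Among 19 classical identity genes tested 10 fell and the others did not pass (median log2 fold -0.82). In DESeq2 6 fell. Fn1, fibronectin, had 98.2 CPM in KO and 48.4 CPM in flox cells without Fabp4, against 693 CPM in KO and 671 CPM in flox classical monocytes (log2 fold -3.20 ± 0.20 SE, edgeR adjusted p = 1.9e-08). Lyz2, the lysozyme of monocytes and macrophages, had 12237 CPM in KO and 14581 CPM in flox cells without Fabp4, against 24544 CPM in KO and 26391 CPM in flox classical monocytes (log2 fold -1.03 ± 0.08 SE, edgeR adjusted p = 1.3e-07). Both lay lower in the cells without Fabp4 of each library than in its classical monocytes.

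Other groups moved in part. Of 19 genes of the cytoskeleton and membrane 6 rose and 3 fell, with Msn, the linker moesin (log2 fold 0.73 ± 0.10 SE, edgeR adjusted p = 0.00013), among the first and Vim, the intermediate filament vimentin, among the second, at 1552 CPM in KO and 1695 CPM in flox cells without Fabp4, against 3574 CPM in KO and 4238 CPM in flox classical monocytes (log2 fold -1.35 ± 0.09 SE, edgeR adjusted p = 1.9e-08). Of 16 genes of pattern recognition 3 fell and the others did not pass, with Cd14, a co-receptor for lipopolysaccharide, at 231 CPM in KO and 218 CPM in flox cells without Fabp4, against 537 CPM in KO and 587 CPM in flox classical monocytes (log2 fold -1.41 ± 0.14 SE, edgeR adjusted p = 4e-06). Of 15 genes of phagocytosis and efferocytosis 4 rose and 1 fell, Trem1, a receptor that amplifies inflammation, among the first (log2 fold 1.68 ± 0.36 SE, edgeR adjusted p = 0.0053). Of 12 Fc receptor genes 3 rose, led by Fgr, a Src-family kinase (log2 fold 0.85 ± 0.16 SE, edgeR adjusted p = 0.0022), and 1 fell, the IgG receptor Fcgr3 (log2 fold -0.92 ± 0.22 SE, edgeR adjusted p = 0.011). In DESeq2 0 of the 12 passed, with 2 higher and 1 lower at an unadjusted p under 0.05. Of 16 cytokine genes 3 fell and the others did not pass, with Ccl9, a chemokine, at 149 CPM in KO and 169 CPM in flox cells without Fabp4, against 339 CPM in KO and 374 CPM in flox classical monocytes (log2 fold -1.26 ± 0.16 SE, edgeR adjusted p = 4.2e-05).

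Of 3 dendritic cell markers tested, Flt3, Clec10a and Batf3, all 3 fell in edgeR. In DESeq2 0 of the 3 passed; 2 of them had an unadjusted p under 0.05, and 2 were given no adjusted p. Flt3, the receptor for the cytokine FLT3L, had 2 UMIs in KO and 1 UMI in flox cells without Fabp4, against 21 UMIs in KO and 36 UMIs in flox classical monocytes (log2 fold -4.30 ± 0.60 SE, edgeR adjusted p = 0.00016). Cd209d, a C-type lectin, and Cd7, a protein known from lymphocytes, also fell (log2 folds -5.99 and -5.57). Mmp8, a collagenase known from neutrophils, had a log2 fold of -5.84. Of 25 interferon-stimulated genes 6 fell and the others did not pass, with a median of -0.52, and 1 fell in DESeq2. Cxcl10, a chemokine, had the largest fall among those 6 (log2 fold -2.69 ± 0.51 SE, edgeR adjusted p = 0.0021).

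The genes of antigen presentation on MHC class II divided by library. Of 9 tested 2 fell and the others did not pass. The 2 were H2-DMa and H2-DMb1, which load peptides onto class II (-1.16 and -1.08 on the log2 scale). Cd74, the invariant chain, had 4358 CPM in KO and 6567 CPM in flox cells without Fabp4, against 6279 CPM in KO and 3227 CPM in flox classical monocytes. H2-Aa had 1448 CPM in KO and 2028 CPM in flox cells without Fabp4, against 1900.4 CPM in KO and 1053 CPM in flox classical monocytes. H2-Eb1, a beta chain, had 784 CPM in KO and 1214 CPM in flox cells without Fabp4, against 1010.5 CPM in KO and 437 CPM in flox classical monocytes. For these 3 genes the cells without Fabp4 were below the classical monocytes in KO and above them in flox.

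Set against the nonclassical monocytes with Fabp4, the cells without Fabp4 had lower levels of nonclassical genes and higher levels of classical, MHC class II and interferon-stimulated genes. In the same fit 108 genes (1.5% of 7202) rose and 44 (0.611%) fell, with a median log2 fold over all genes of 0.00. DESeq2, with no adjusted p for 3076 genes, called 44 higher and 1 lower. Of the 23 nonclassical identity genes 8 fell and the others did not pass (median -0.44), and 1 fell in DESeq2. Itgal had 901 CPM in KO and 678 CPM in flox cells without Fabp4, against 1285 CPM in KO and 1159 CPM in flox cells with Fabp4 (log2 fold -0.58 ± 0.11 SE, edgeR adjusted p = 0.0072). Spn had 383 CPM in KO and 245 CPM in flox cells without Fabp4, against 574 CPM in KO and 457 CPM in flox cells with Fabp4 (log2 fold -0.65 ± 0.15 SE, edgeR adjusted p = 0.031). Stap1, a signalling adaptor, had 196 CPM in KO and 179 CPM in flox cells without Fabp4, against 366 CPM in KO and 419 CPM in flox cells with Fabp4 (log2 fold -0.98 ± 0.16 SE, edgeR adjusted p = 0.0016). Nr4a1 (log2 fold -0.19 ± 0.11 SE, edgeR adjusted p = 0.6) and Cx3cr1 (log2 fold -0.23 ± 0.14 SE, edgeR adjusted p = 0.63) did not pass the test.

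Genes of lipid handling that were higher than in classical monocytes included some that were lower than in cells with Fabp4. Of 15 in that group 3 fell, Cd36, Pparg and Apoc2, and 1 rose. Cd36 had 103 CPM in KO and 118 CPM in flox cells without Fabp4, against 239 CPM in KO and 416 CPM in flox cells with Fabp4 (log2 fold -1.41 ± 0.20 SE, edgeR adjusted p = 0.00066). Pparg had 32.4 CPM in KO and 27.2 CPM in flox cells without Fabp4, against 71.8 CPM in KO and 90.3 CPM in flox cells with Fabp4 (log2 fold -1.26 ± 0.28 SE, edgeR adjusted p = 0.021). Npc2, which carries cholesterol out of lysosomes, was the one that rose (log2 fold 1.22 ± 0.15 SE, edgeR adjusted p = 0.00014). Of 16 survival genes 3 fell, Bcl2 (log2 fold -0.94 ± 0.22 SE, edgeR adjusted p = 0.031) and the copies Bcl2a1d and Bcl2a1b, and 0 fell in DESeq2 at the adjusted threshold. Adrb1 (log2 fold -1.62 ± 0.35 SE, edgeR adjusted p = 0.021), Tgfbr3, a co-receptor for TGF-beta (log2 fold -1.61 ± 0.38 SE, edgeR adjusted p = 0.031), and Cdk6, a kinase of the cell cycle (log2 fold -1.76 ± 0.41 SE, edgeR adjusted p = 0.028), fell as well in edgeR, and DESeq2 gave them no adjusted p.

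The classical identity genes ran the other way, with 11 of 19 rising and the others not passing (median 0.62), and 5 rising in DESeq2. Fn1 had 98.2 CPM in KO and 48.4 CPM in flox cells without Fabp4, against 10.0 CPM in KO and 17.5 CPM in flox cells with Fabp4 (log2 fold 2.90 ± 0.32 SE, edgeR adjusted p = 4.7e-05). Cd177, an adhesion protein known from neutrophils, had 18.4 CPM in KO and 42.4 CPM in flox cells without Fabp4, against 2.35 CPM in KO and 0 CPM in flox cells with Fabp4 (log2 fold 3.51 ± 0.60 SE, edgeR adjusted p = 0.0026). These genes lay higher in the cells without Fabp4 of both libraries. In cells with Fabp4 the levels of Cd177 and the flox level of Fn1 rest on few UMIs. Outside that list, Vim (log2 fold 1.03 ± 0.09 SE, edgeR adjusted p = 2.9e-06) and Cd14 (log2 fold 0.76 ± 0.16 SE, edgeR adjusted p = 0.012) rose as well. Maf and Runx3, transcription factors, also rose (log2 fold 1.90 ± 0.34 SE, edgeR adjusted p = 0.0035 for Maf, and log2 fold 1.48 ± 0.31 SE, edgeR adjusted p = 0.012 for Runx3). Of these 4 genes Vim passed in DESeq2, and Cd14, Maf and Runx3 did not. Of 14 MHC class I genes, 15 of the TSC complex and mTORC1 pathway and 18 of glycolysis 0 passed in edgeR, where 5, 0 and 0 of them had an unadjusted p under 0.05, and 0 passed in DESeq2.

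Of 9 MHC class II genes 7 rose and the others did not pass, with a median log2 fold of 2.04, and 5 rose in DESeq2. H2-Aa had 1448 CPM in KO and 2028 CPM in flox cells without Fabp4, against 362 CPM in KO and 457 CPM in flox cells with Fabp4 (log2 fold 2.15 ± 0.22 SE, edgeR adjusted p = 3.9e-05). H2-Ab1 had 1073 CPM in KO and 1767 CPM in flox cells without Fabp4, against 211 CPM in KO and 297 CPM in flox cells with Fabp4 (log2 fold 2.57 ± 0.28 SE, edgeR adjusted p = 4.4e-05). Cd74 had 4358 CPM in KO and 6567 CPM in flox cells without Fabp4, against 1739 CPM in KO and 1401 CPM in flox cells with Fabp4 (log2 fold 1.87 ± 0.22 SE, edgeR adjusted p = 7.7e-05). Ciita, the co-activator that switches class II genes on, had 36.8 CPM in KO and 63.6 CPM in flox cells without Fabp4, against 3.53 CPM in KO and 8.74 CPM in flox cells with Fabp4 (log2 fold 3.28 ± 0.48 SE, edgeR adjusted p = 0.00072). The summed level of these genes was higher in the cells without Fabp4 in each library. The levels of Ciita in cells with Fabp4 rest on few UMIs.

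The free RNA of the droplets, read from barcodes of 10 to 100 UMIs, held class II transcripts too. Summed over the 11 genes listed, class II stood at 9943 CPM in KO and 14390.2 CPM in flox cells without Fabp4, against 4282 CPM in KO and 4709 CPM in flox cells with Fabp4, and at 5391 CPM in KO and 6347 CPM in flox free RNA. The cells with Fabp4 were thus below the level of free RNA in both libraries. The 10 B cell markers were summed at 95.6 CPM in KO and 133 CPM in flox cells without Fabp4, against 104 CPM in KO and 178 CPM in flox cells with Fabp4, with Pax5 at 0 and Cd79a at 0 by the gate. The dendritic cell markers were summed at 83.3 CPM in KO and 51.4 CPM in flox cells without Fabp4, against 15.3 CPM in KO and 23.3 CPM in flox cells with Fabp4, with Xcr1, Cd209a and Fscn1 at 0 and all 21 UMIs of Siglech in 1 KO member. The part of these cell types in the class II difference was not tested.

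Of 25 interferon-stimulated genes 12 rose and the others did not pass, with a median of 1.24, and 8 rose in DESeq2. Isg15, a ubiquitin-like modifier, had 67.5 CPM in KO and 294 CPM in flox cells without Fabp4, against 11.2 CPM in KO and 14.6 CPM in flox cells with Fabp4 (log2 fold 3.42 ± 0.51 SE, edgeR adjusted p = 0.00076). Ifit3, an antiviral protein, had 22.8 CPM in KO and 139 CPM in flox cells without Fabp4, against 7.65 CPM in KO and 2.91 CPM in flox cells with Fabp4 (log2 fold 2.82 ± 0.56 SE, edgeR adjusted p = 0.0087), and 1 member held 50% of its UMIs in KO. Rsad2, the antiviral enzyme viperin, had 29.8 CPM in KO and 130.1 CPM in flox cells without Fabp4, against 8.83 CPM in KO and 14.6 CPM in flox cells with Fabp4 (log2 fold 2.42 ± 0.45 SE, edgeR adjusted p = 0.0056). Irf7, a transcription factor of the interferon response, had 170.1 CPM in KO and 372 CPM in flox cells without Fabp4, against 79.4 CPM in KO and 131 CPM in flox cells with Fabp4 (log2 fold 1.36 ± 0.25 SE, edgeR adjusted p = 0.0056). In each of these genes the cells without Fabp4 were higher in both libraries. The ratio was larger in flox for Isg15, Ifit3 and Rsad2, a difference that was not tested. The flox levels of Isg15, Ifit3 and Rsad2 in cells with Fabp4 rest on few UMIs. In KO 1 member held 38.2% of the Rsad2 UMIs. Without the highest member of each gene, Ifit3 was at 11.47 CPM in KO and 102.9 CPM in flox cells without Fabp4. Rsad2 was then at 18.52 CPM in KO and 87.3 CPM in flox cells without Fabp4. These levels were still above those of the cells with Fabp4.

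Interferon-stimulated and class II genes are known to respond through short elements in their promoters, and 5 promoters are shown because their genes separated the cells with and without Fabp4. The interferon element bound by ISGF3 and IRF factors was searched as TTTCNNTTTC on both strands of 250 bases before the start, and 978 of 32851 promoters (2.98%) held it. Among the interferon-stimulated genes 12 of the 19 with a promoter in the table, of 29 listed, held it. Class II promoters are known for a Y box, searched as ATTGG in the same way and held by 11120 promoters (33.8%). Its letters stood in the promoters of 7 of the 8 class II genes with one in the table, of 11 listed. The sequences are RefSeq's on GRCm38.p6, 180 bases before the start, given 5' to 3' on the strand of the gene. Capitals mark the matched letters, on either strand and merged where matches overlap; a match is a description of letters. Isg15 lies at chr4:156200819-156200998, minus strand, Ifit3 at chr19:34583349-34583528, plus strand, Rsad2 at chr12:26456453-26456632, minus strand, H2-Aa at chr17:34287824-34288003, minus strand, and H2-Eb1 at chr17:34305687-34305866, plus strand.
Isg15: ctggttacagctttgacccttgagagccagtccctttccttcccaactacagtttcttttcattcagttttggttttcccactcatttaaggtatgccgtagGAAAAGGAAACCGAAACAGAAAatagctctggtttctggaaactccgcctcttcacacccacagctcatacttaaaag
Ifit3: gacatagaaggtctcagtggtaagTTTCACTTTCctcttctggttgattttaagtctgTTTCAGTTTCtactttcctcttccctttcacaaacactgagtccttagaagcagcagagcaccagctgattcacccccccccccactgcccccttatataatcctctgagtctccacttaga
Rsad2: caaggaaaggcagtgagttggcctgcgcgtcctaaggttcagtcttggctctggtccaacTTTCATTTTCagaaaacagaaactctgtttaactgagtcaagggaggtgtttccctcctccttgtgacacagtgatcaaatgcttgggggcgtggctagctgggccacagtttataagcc
H2-Aa: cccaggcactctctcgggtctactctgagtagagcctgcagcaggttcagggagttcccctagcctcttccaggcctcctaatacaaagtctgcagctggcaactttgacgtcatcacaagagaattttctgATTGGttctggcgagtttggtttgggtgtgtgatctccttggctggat
H2-Eb1: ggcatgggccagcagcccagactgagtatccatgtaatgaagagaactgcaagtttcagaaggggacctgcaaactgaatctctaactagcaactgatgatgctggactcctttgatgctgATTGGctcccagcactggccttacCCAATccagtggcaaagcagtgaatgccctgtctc
Isg15 held 3 overlapping matches of the interferon element, Ifit3 held 2 and Rsad2 held 1. H2-Aa held 1 Y box and H2-Eb1 held 2, the second of them on the other strand.

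In KO the class II genes stepped down between 0 and 1 UMI of Fabp4, with no further fall beyond it. In KO, nonclassical monocytes with 0, 1, 2, 3 to 5 and 6 or more UMIs of Fabp4 numbered 156, 66, 57, 79 and 74, and in flox 43, 19, 7, 12 and 17. H2-Aa stood at 1448, 215, 379, 420.0 and 414 CPM over these steps in KO and at 2028, 993, 0, 14.8 and 335 CPM in flox. In flox the cells with 1 UMI lay between, and each step above 0 UMIs held under 20 flox cells. Cd36 stood at 103, 164, 243, 246 and 288 CPM in KO and 118, 190.3, 504, 504 and 577 CPM in flox and so was higher at each step in KO. Fabp4 UMIs also grow with depth, which was not separated from the steps here.

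**Figure D2:**
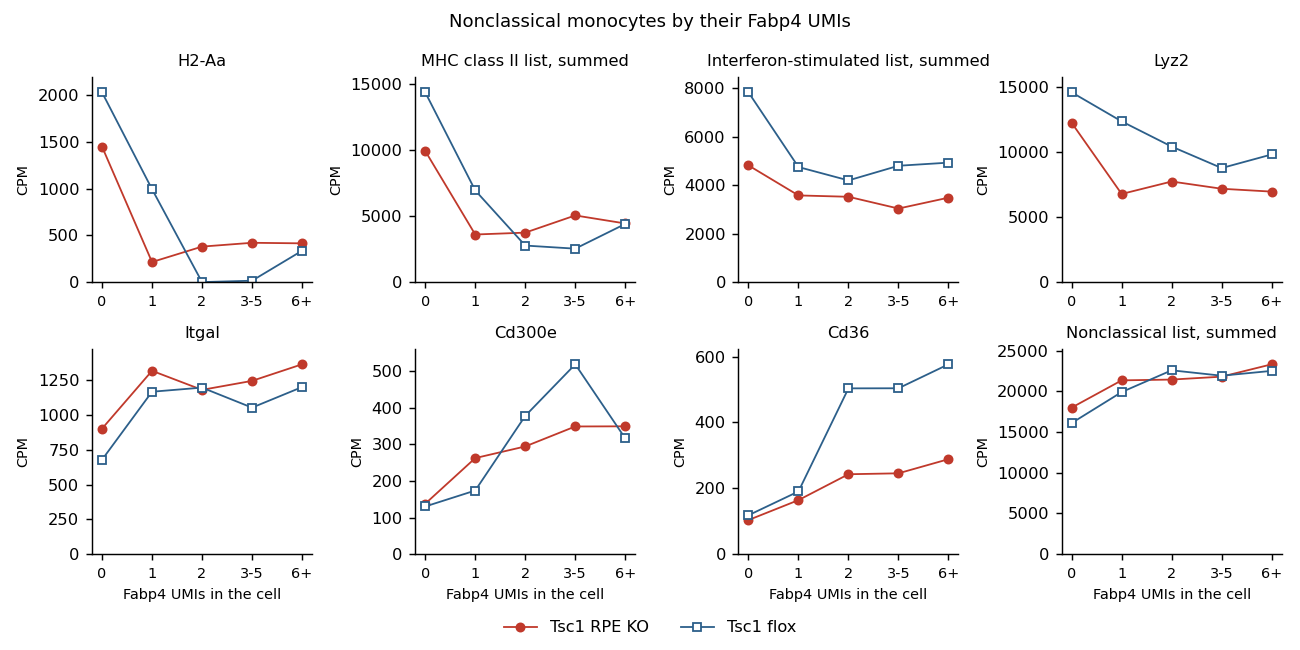
Levels (CPM) of H2-Aa, the summed MHC class II and interferon-stimulated lists, Lyz2, Itgal, Cd300e, Cd36 and the summed nonclassical list in nonclassical monocytes grouped by their Fabp4 UMIs (0, 1, 2, 3 to 5, 6 or more); red circles are Tsc1 RPE KO, blue squares Tsc1 flox. H2-Aa is highest at 0 UMIs in both libraries, 1448 CPM in KO and 2028 CPM in flox, and Cd36 is lowest there.

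The cells without Fabp4 were not uniform, and their classical genes marked the parts. Of the 156 KO members 86 had no UMI of F13a1, Ly6c2 or Ccr2, 34 had UMIs of 1 of these genes and 36 had UMIs of 2 or 3 (23.1%, interval 16.7 to 30.5%). Of the 43 flox members 20 had none, 10 had 1 and 13 had 2 or 3 (30.2%). Among cells with Fabp4, 4 of 276 in KO (1.45%) and 5 of 55 in flox (9.09%) had 2 or 3. Depth differed between the steps, with medians of 5207, 7822.5 and 10081 UMIs per cell in KO and 4876, 8878.5 and 11291 in flox for 0, 1 and 2 or 3 genes.

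Nonclassical genes fell off over these steps. Cd300e stood at 267, 97.0 and 2.68 CPM in KO and 341, 85.4 and 0 CPM in flox. Itgal stood at 1207, 983 and 445 CPM in KO and 1147, 683 and 329 CPM in flox. Spn stood at 514, 485 and 137 CPM in KO and 445, 354 and 35.0 CPM in flox. Members with 2 or 3 classical genes thus had little or no Cd300e, although they had entered the gate through the 3 receptor genes together. Nr4a1 showed no such course in KO, at 994, 1039 and 810.1 CPM, while it was at 1194, 1440.0 and 643 CPM in flox.

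Class II and interferon-stimulated genes were higher in the members with classical genes. H2-Aa stood at 279.8, 1281 and 3077 CPM in KO and 729.8, 2807 and 2539 CPM in flox for 0, 1 and 2 or 3 genes. The summed interferon-stimulated list stood at 3578, 4741 and 6473 CPM in KO and 5506, 7261 and 9883 CPM in flox. Lyz2 stood at 7311, 13502 and 17587 CPM in KO and 10331, 11141.5 and 19689 CPM in flox. In members with no classical gene H2-Aa was below its level in free RNA, 818 CPM in KO and 1017.5 CPM in flox.

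**Figure D3:**
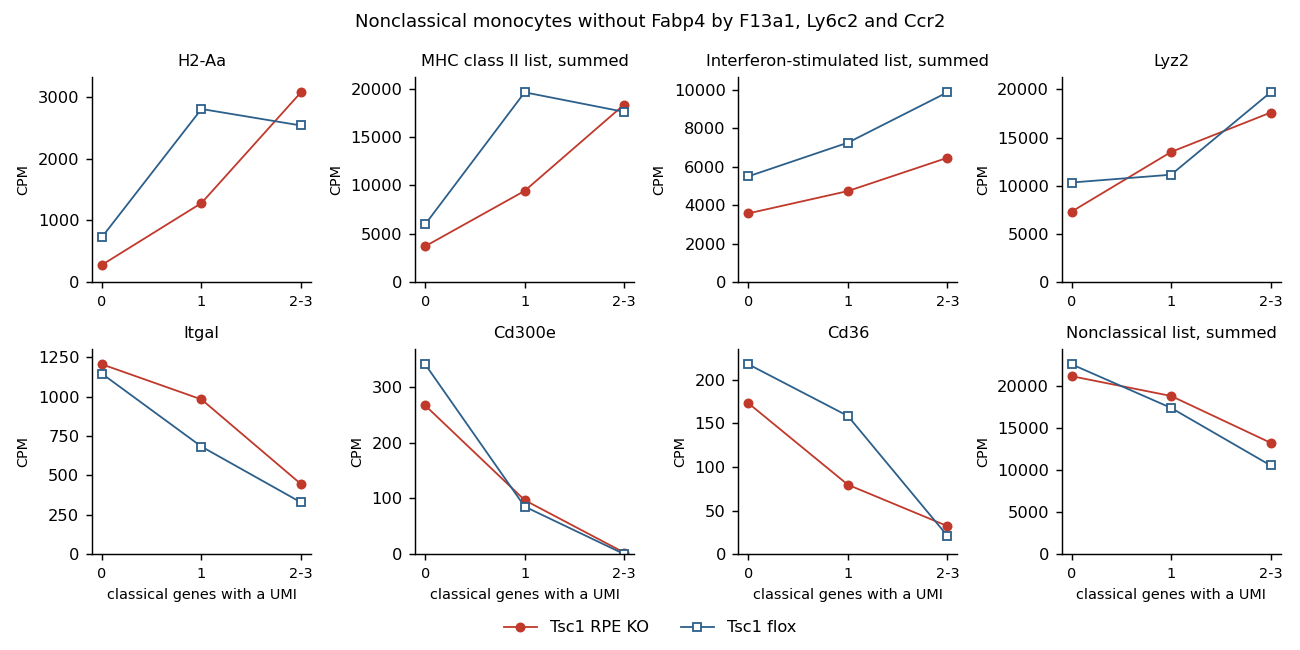
Levels (CPM) of H2-Aa, the summed MHC class II and interferon-stimulated lists, Lyz2, Itgal, Cd300e, Cd36 and the summed nonclassical list in nonclassical monocytes without Fabp4 that had UMIs of 0, 1 or 2 to 3 of F13a1, Ly6c2 and Ccr2; red circles are Tsc1 RPE KO, blue squares Tsc1 flox. Cd300e drops to 2.68 CPM in KO and 0 CPM in flox at the right, where Lyz2 is highest.

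With the members of 2 or 3 classical genes left out, a choice made after seeing the data, the difference from cells with Fabp4 shrank to 2 higher and 0 lower calls among 6939 genes in edgeR, with 168 and 109 at an unadjusted p under 0.05. With such cells left out of both sets it was 8 higher and 0 lower calls. The class II list then had a median log2 fold of 1.22 in the first case and 1.18 in the second, with 0 of 9 genes called and 6 at an unadjusted p under 0.05 in each. The interferon-stimulated list had medians of 0.78 and 0.75 with 0 of 25 called and 12 and 11 at an unadjusted p under 0.05. DESeq2 was not run on these sums. Against classical monocytes the same step left 19 of 23 nonclassical identity genes higher, and it raised the fallen genes to 4 of 9 for class II and 14 of 25 for the interferon-stimulated list. In both libraries the members left out had higher summed class II and interferon-stimulated levels than those kept. Part of this change was thus built into the choice of members. Fewer cells enter these fits.

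Single cells showed the same spread. Per 10000 UMIs of a cell, the class II list in cells without Fabp4 ran from 3.85 over a median of 24.6 to 606 in KO and from 8.43 over 33.3 to 1538 in flox, against a median of 22.4 and a highest value of 445 in KO and 25.3 and 339 in flox cells with Fabp4. The medians of the sets thus lay close together and the upper ends apart. The upper quartile was 62.0 in KO and 198 in flox cells without Fabp4, against 33.3 in KO and 35.0 in flox cells with Fabp4. The nonclassical identity list had medians of 174 in KO and 164 in flox cells without Fabp4, against 198 in KO and 199 in flox cells with Fabp4 and 75.6 in KO and 64.6 in flox classical monocytes.

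Class II genes were also among the most variable of the 1016 genes with a mean of at least 0.2 UMIs over members thinned to 1500 UMIs. Cd74 had a variance of 18.6 times its mean in KO and 31.5 times in flox, H2-Aa 8.93 times in KO and 13.9 times in flox, and Lyz2 7.86 times in KO and 8.72 times in flox. The median gene had 1.12 times in each library. Apoe, a lipid carrier of macrophages, had 60.3 times in KO, where 1 member held 1170 of its 3160 UMIs, and 7.83 times in flox.

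**Figure D4:**
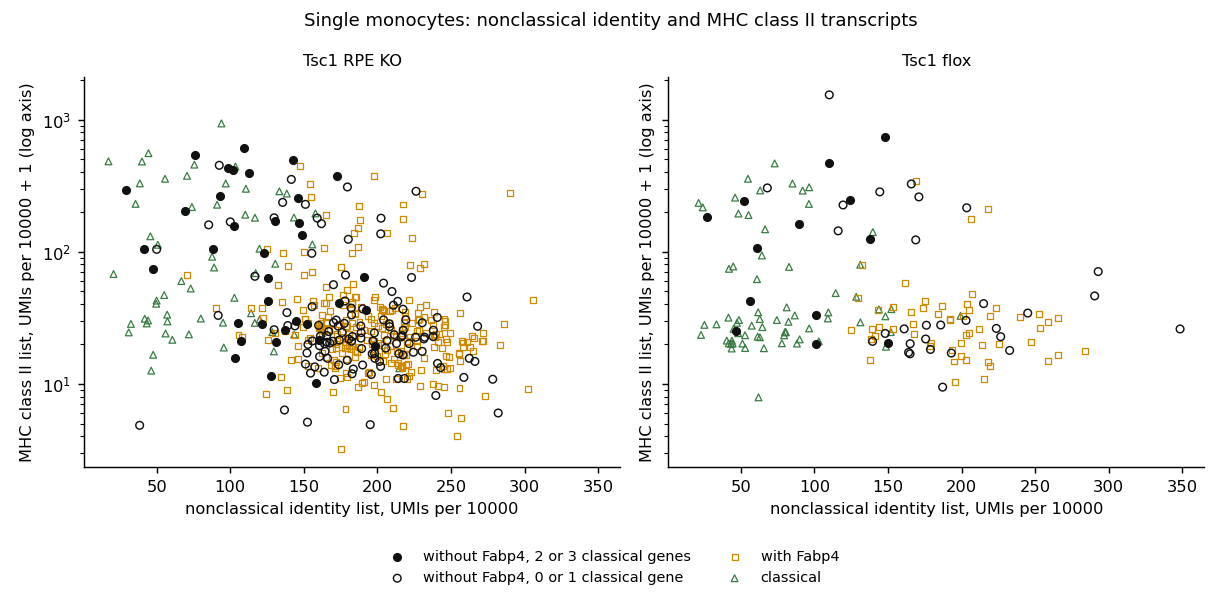
UMIs per 10000 of the nonclassical identity list (horizontal) and of the MHC class II list plus 1 (vertical, log axis) in single monocytes of Tsc1 RPE KO (left) and Tsc1 flox (right); circles are cells without Fabp4, filled with UMIs of 2 or 3 of F13a1, Ly6c2 and Ccr2, amber squares cells with Fabp4 and green triangles classical monocytes. Most cells without Fabp4 lie among the amber squares, and those that reach above 100 on the vertical axis lie mostly left of the median of the amber squares.

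RNA of other cell types reached some members. Of the 458 UMIs of rod photoreceptor markers in KO members 399 stood in 1 barcode of 5201 UMIs, and flox members had 13 in all. A second KO barcode held 106 of 110 UMIs of Dcn and Myoc. Another held 120 of 137 UMIs of the complement genes C1qa, C1qb and C1qc, known from macrophages, and 83 of 208 UMIs of the chemokine Cxcl2. The KO member with the next most C1q UMIs held 14, and in flox 1 member held all 17 C1q UMIs. Without the highest KO member alone, C1q stood at 15.0 CPM in KO cells without Fabp4, against 1.18 CPM in KO cells with Fabp4. The calls of the rod genes Rom1, Sag, Gngt1 and Cnga1 and of Dcn and Myoc over classical monocytes and those of C1qb and C1qc over cells with Fabp4 rest on these barcodes. With barcodes of at least 10 UMIs of other cell types or of C1q left out, 306 genes were higher and 296 lower than in classical monocytes, and 94 were higher and 42 lower than in cells with Fabp4. Of 4 haemoglobin genes all 4 were lower than in cells with Fabp4, Hbb-bs at 53.5 CPM in KO and 112 CPM in flox cells without Fabp4, against 989.6 CPM in KO and 143 CPM in flox cells with Fabp4 (log2 fold -3.0 ± 0.58 SE, edgeR adjusted p = 0.0079), and 0 of the 4 passed in DESeq2. The KO library decided this, since without it the log2 folds were 0.06 for Hba-a1, 1.25 for Hba-a2, -0.35 for Hbb-bs and -1.78 for Hbb-bt. S100a9 and Retnlg, markers of neutrophils, had 0 UMIs in all 6 sums. The 15 neutrophil markers listed were summed at 83.3 CPM in KO and 45.4 CPM in flox cells without Fabp4. In cells with Fabp4 they stood at 83.0 CPM in KO and 90.3 CPM in flox, and in classical monocytes at 124 CPM in KO and 106 CPM in flox.

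Between the libraries, the KO members had higher levels of Hp, Slpi and Txn1 than the flox members and lower levels of 7 of 18 interferon-stimulated genes. Of 4065 genes with at least 50 UMIs over both, 157 (3.86%) were at least 2-fold higher in KO and 60 (1.48%) at least 2-fold lower, with a median ratio of 1.03. There is 1 library per genotype, so these are differences between 2 pools of 2 mice and no test was made. The genes named were ranked by the bound of the counting interval nearest to 1. Ratios of the same gene in other cells are set beside several of them.

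Hp, haptoglobin, had 711 UMIs (623 CPM) in KO cells without Fabp4, against 43 UMIs (130.1 CPM) in flox cells without Fabp4 (ratio 4.79, interval 3.52 to 6.68), with ratios of 4.46 in cells with Fabp4 and 1.25 in classical monocytes. Slpi, an inhibitor of leukocyte proteases, had 119 UMIs (104 CPM) in KO cells without Fabp4, against 3 UMIs (9.08 CPM) in flox cells without Fabp4 (ratio 11.5, interval 3.84 to 56.5), with ratios of 6.13 and 0.679 in cells with Fabp4 and in classical monocytes. Txn1, thioredoxin, had 666 UMIs (584 CPM) in KO cells without Fabp4, against 58 UMIs (176 CPM) in flox cells without Fabp4 (ratio 3.33, interval 2.54 to 4.43), with ratios of 3.05 and 1.07 in the same sets. For these genes the cells with and without Fabp4 differed between the libraries in the same direction, and the classical monocytes less or the other way; this difference between sets was not tested.

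Ly6i, of the Ly6 family, had 423 UMIs (371 CPM) in KO cells without Fabp4, against 30 UMIs (90.8 CPM) in flox cells without Fabp4 (ratio 4.08, interval 2.82 to 6.13), and its ratio was 16.1 in all other cells. Prdx5, a peroxiredoxin, had 2102 UMIs (1843 CPM) in KO cells without Fabp4, against 250 UMIs (757 CPM) in flox cells without Fabp4 (ratio 2.44, interval 2.14 to 2.79). Smpdl3b, a phosphodiesterase of lipids, had 348 UMIs (305 CPM) in KO cells without Fabp4, against 28 UMIs (84.7 CPM) in flox cells without Fabp4 (ratio 3.60, interval 2.45 to 5.50). Mcemp1 had a ratio of 3.60 and Relb, a subunit of NF-κB, one of 6.66 with 3 UMIs in flox. Ikbke, a kinase of innate signalling, had 71 UMIs (62.3 CPM) in KO cells without Fabp4, against 1 UMI (3.03 CPM) in flox cells without Fabp4, and Tnip3, an inhibitor of NF-κB signalling, had 51 UMIs (44.7 CPM) in KO cells without Fabp4, against 1 UMI (3.03 CPM) in flox cells without Fabp4. In cells with Fabp4 the ratios were 2.41 for Ly6i, 2.64 for Prdx5, 2.02 for Smpdl3b, 2.83 for Mcemp1, 2.42 for Relb and 6.51 for Tnip3. Smpdl3b had a ratio of 3.70 in all other cells.

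Wnt6 and Lyz1 were among the 4 measured genes at 0 UMIs in flox members. Wnt6, a secreted Wnt ligand, had 64 UMIs over 48 KO members with at most 3 each, at least 6.18-fold higher against a floor of 3 UMIs summed over the flox members. Its ratio was 12.4 in cells with Fabp4. Lyz1, a lysozyme gene next to its near-identical copy Lyz2, had 82 UMIs in KO, at least 7.92-fold higher, of which 52 stood in 1 member. Only 1 of these 82 UMIs was left without the members of 2 or 3 classical genes, too few for a ratio. In classical monocytes the Lyz1 ratio was 41.0 (interval 17.2 to 128), in all other cells 40.4 and in cells with Fabp4 1.41. Cxcl2 had 208 UMIs (182 CPM) in KO cells without Fabp4, against 5 UMIs (15.1 CPM) in flox cells without Fabp4. Of the KO UMIs 83 stood in the barcode with the most C1q transcripts.

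On the lower side 7 of 18 interferon-stimulated genes with 50 UMIs were past 2-fold and 0 on the higher side (median log2 ratio -0.68, against 0.04 over all genes). Isg15 had 77 UMIs (67.5 CPM) in KO cells without Fabp4, against 97 UMIs (294 CPM) in flox cells without Fabp4 (ratio 0.230, interval 0.168 to 0.313), and its ratio was 0.768 in cells with Fabp4 and 1.18 in classical monocytes. Ifit3 had 26 UMIs (22.8 CPM) in KO cells without Fabp4, against 46 UMIs (139 CPM) in flox cells without Fabp4 (ratio 0.164, interval 0.0972 to 0.271). Rsad2 had 34 UMIs (29.8 CPM) in KO cells without Fabp4, against 43 UMIs (130.1 CPM) in flox cells without Fabp4 (ratio 0.229, interval 0.142 to 0.368). The highest member held 37.1% of the Isg15 UMIs, 28.3% of the Ifit3 UMIs and 34.9% of the Rsad2 UMIs in flox, so few cells carry these sums.

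Irf7, spread more evenly, had 194 UMIs (170.1 CPM) in KO cells without Fabp4, against 123 UMIs (372 CPM) in flox cells without Fabp4 (ratio 0.457, interval 0.363 to 0.578). Ifi202b, an interferon-inducible DNA sensor, had 101 UMIs (88.6 CPM) in KO cells without Fabp4, against 90 UMIs (272 CPM) in flox cells without Fabp4 (ratio 0.325, interval 0.242 to 0.437), and its ratio in all other cells was 0.326. Lgmn, the lysosomal protease legumain, had 122 UMIs (107 CPM) in KO cells without Fabp4, against 82 UMIs (248 CPM) in flox cells without Fabp4 (ratio 0.431, interval 0.323 to 0.577). The ratios of Irf7 and Lgmn were 0.606 and 0.566 in cells with Fabp4 and 1.15 and 1.16 in classical monocytes.

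The class II genes were lower in KO by less than the fold used. Of 8 measured, 0 were past 2-fold and all 8 had a ratio below 1 (median log2 ratio -0.61). With members of 2 or 3 classical genes left out, 4 of 6 measured were past 2-fold lower, with a median of -1.19. For H2-Ab1, H2-Eb1, H2-DMa and Ciita the ratios were 0.711, 0.643, 0.489 and 0.404 in cells with Fabp4. They were 0.784, 0.818, 0.886 and 0.730 in all other cells and 1.97, 2.31, 1.15 and 1.26 in classical monocytes. The difference between these sets was not tested. Of 19 classical identity genes measured, gate genes included, 2 were past 2-fold higher in KO, Hp among them, and 3 were past 2-fold lower. Their median log2 ratio was 0.13, and 11 of the 19 had a ratio above 1. Within this list F13a1 (ratio 0.439, interval 0.277 to 0.703) and Ly6c2 (ratio 0.715, interval 0.596 to 0.861) were lower in KO members, and the share with 2 or 3 classical genes was 23.1% in KO against 30.2% in flox. The part of this mixture in the class II and interferon differences was not tested. Of 29 nonclassical identity genes measured, gate genes included, 2 were past 2-fold higher in KO, Bcl2a1b (ratio 2.02, interval 1.55 to 2.67) and Cd274, the ligand PD-L1 (ratio 3.11, interval 1.51 to 7.44), and 0 were lower.

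Of 7 genes of the TSC complex and mTORC1 list with 50 UMIs 0 were past 2-fold, with a median log2 ratio of 0.09, and of 14 genes of glycolysis 0 were, with a median of 0.36. Complement and chemotaxis genes held C3, at 241 UMIs (211 CPM) in KO cells without Fabp4, against 22 UMIs (66.6 CPM) in flox cells without Fabp4 (ratio 3.17, interval 2.05 to 5.16), C5ar1 (ratio 2.85, interval 1.72 to 5.00) and Fpr2, a receptor for formylated peptides (ratio 5.27, interval 2.18 to 16.6), all higher in KO members. The ratios of C3, C5ar1 and Fpr2 were also above 1 elsewhere, at 2.94, 1.52 and 7.48 in cells with Fabp4. They were 1.35, 1.68 and 2.51 in classical monocytes and 1.83, 3.07 and 5.58 in all other cells.

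**Figure D5:**
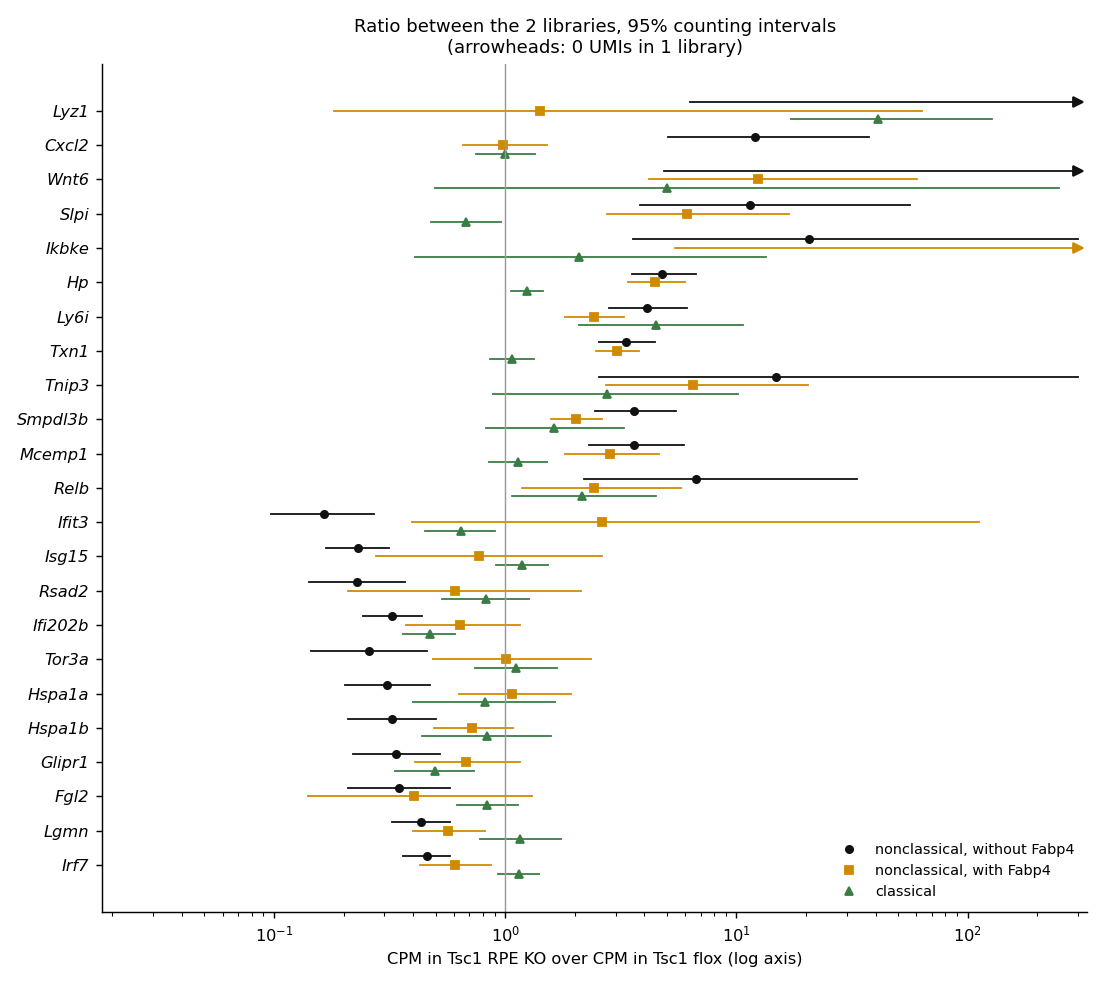
Ratio of CPM in Tsc1 RPE KO over CPM in Tsc1 flox (log axis) for the 12 highest and 11 lowest ranked genes in nonclassical monocytes without Fabp4 (black circles), with Fabp4 (amber squares) and in classical monocytes (green triangles), with 95% counting intervals; arrowheads mark 0 UMIs in 1 library. Hp, Slpi and Txn1 are higher in KO in both nonclassical sets, and Ifit3, Isg15 and Rsad2 are below 1 in the cells without Fabp4 with intervals that do not reach 1.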

How the data were processed

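The deposited files hold raw UMI counts per gene and barcode, made by the authors from droplet libraries of live sorted RPE and choroid cells. Cell Ranger 2.1.1 and mm10 stand in the submitters' processing notes, but version 4 stands in the matrix headers, so which version counted is unsure. The files list all barcodes (728310 in KO, 661479 in flox). Cells, monocyte sets and their limits are given at the start of the results; the authors' annotation of cells was not used here. UMIs were summed per library and set (6 sums) and tested in edgeR 4.0.16 (R 4.3.3) with TMM scaling, a quasi-likelihood test, a library term and Benjamini-Hochberg adjustment, with the 13 gate and marker genes left untested. Sums of one library come from the same mice, which is why the library is a term. On simulated counts of 7180 genes, the fit over classical monocytes recovered 33.33% of 2-fold and 72.45% of 3-fold changes, and the fit over cells with Fabp4 recovered 44.79% and 81.63%, with 3 false calls each. The simulation gave every gene the same fixed spread and all sets of a library the same profile apart from the changed genes. The real sums also hold single members with many UMIs of a gene. These false calls are therefore no error rate for the calls in the real sums. Ratios between the libraries carry exact conditional intervals, CPM exact Poisson intervals and shares exact Clopper-Pearson intervals, all of 95%. Thinning, Scrublet (scanpy 1.11.5) and DESeq2 1.42.0 served as alternatives. Genes were named by rule: gate genes, up to 4 per list, the 12 highest and lowest in each comparison and the 10 most variable; some of them are given in groups only and a few are not reported here. The members and the 32 gene lists were chosen with earlier results of these data known. Near-identical copies (Bcl2a1a, Bcl2a1b and Bcl2a1d; Hba and Hbb genes; Lyz1 and Lyz2; Ly6i and Ly6c2; H2-K1 and H2-Q7) may share reads.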

Additional observations from a re-analysis of the deposited data

Results flagged for a closer look

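Only the genes named by rule were searched here, and some of these had been named because they differed between the libraries. For 14 of these genes the cells without Fabp4 lay above classical monocytes in 1 library and below in the other. Their counting intervals did not reach 1. Each library is 1 sample, and the difference between the libraries was not tested. The ratio over classical monocytes was below 1 in KO and above 1 in flox for the class II genes Cd74 (0.694 in KO, 2.03 in flox), H2-Aa (0.762 in KO, 1.93 in flox), H2-Ab1 (0.776 in KO, 2.51 in flox) and H2-Eb1 (0.776 in KO, 2.78 in flox). The interferon-stimulated genes Isg15 (0.323 in KO, 1.65 in flox), Rsad2 (0.443 in KO, 1.59 in flox) and Irf7 (0.516 in KO, 1.29 in flox) went the same way, as did Psap, a lysosomal protein (0.830 in KO, 1.36 in flox) and Actb, an actin (0.962 in KO, 1.12 in flox). In flox 1 member held 37.1% of the Isg15 UMIs and 1 held 34.9% of the Rsad2 UMIs. Without that member Isg15 was at 192 CPM in flox cells without Fabp4, against 178 CPM in flox classical monocytes, and Rsad2 was at 87.3 CPM in flox cells without Fabp4, against 81.8 CPM in flox classical monocytes.

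The ratio was above 1 in KO and below 1 in flox for Txn1 (2.1 in KO, 0.673 in flox), Prdx5 (1.42 in KO, 0.715 in flox), Mcemp1 (1.34 in KO, 0.425 in flox), Ccl4, a chemokine (1.55 in KO, 0.429 in flox), and Egr1, an early response factor (2.11 in KO, 0.286 in flox). In KO 1 member held 67% of the Ccl4 UMIs and 72% of the Egr1 UMIs. For Ccl4 and Egr1 the ratio above 1 in KO, and with it the opposite direction, therefore rests on the UMIs of a single member.

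Over cells with Fabp4, 4 of the genes named by rule differed in direction between the libraries in the same untested way. They were Cxcl2 (2.20 in KO, 0.179 in flox), Apoe (1.32 in KO, 0.816 in flox), Hmox1, a haem oxygenase (0.781 in KO, 1.76 in flox), and Hba-a2 (0.0298 in KO, 2.47 in flox). Below the depth limit, 6 KO barcodes and 2 flox barcodes of 500 to 1499 UMIs met the rest of the gate and were left out. In KO 1 member held 37% of the Apoe UMIs. Without it Apoe was at 1760 CPM in KO cells without Fabp4, against 2101 CPM in KO cells with Fabp4, a ratio of 0.837 and so below 1 in both libraries.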

How the results depend on the processing

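Calls were bounded by depth and by 2 libraries. The share of cells without Fabp4 moved to 7.20% in KO with at least 3 UMIs of the gate genes, to 12% in KO and 4.05% in flox with up to 1 UMI of Fabp4, to 28.5% in KO and 22.3% in flox among barcodes under 3 UMIs of other cell types, and to 6.50% in KO and 1.96% in flox without cells of 2 or 3 classical genes. The limit on other cell types also took cells of those types out of the total, while 104 members stayed in KO and 31 in flox. Genes past 2-fold between the libraries numbered 42 higher and 15 lower after thinning (960 genes measured) and 508 higher and 199 lower from 20 UMIs on (6549 genes). Over classical monocytes, 126 genes were higher and 127 lower after thinning (3031 genes), 98 and 51 in DESeq2 and 185 and 160 with no replicate block (the library term left out). Over cells with Fabp4 the counts higher and lower were 60 and 8 with at least 3 UMIs of the gate genes, 42 and 7 with up to 1 UMI of Fabp4, 71 and 25 without barcodes of 3 UMIs of other types, 27 and 4 after thinning, 44 and 1 in DESeq2, 180 and 76 with no filter on low counts, 44 and 5 with no replicate block, 2 and 0 without cells of 2 or 3 classical genes and 8 and 0 with such cells left out of both sets. The last 2 of these, and mixed barcodes, were chosen after seeing the data; fewer genes or cells enter several, and otherwise the cause was not tested. DESeq2 gave no adjusted p for 3356 of 7202 genes over classical monocytes and 3076 over cells with Fabp4. Its calls and those with no replicate block were all among edgeR's.

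Single values that turned were the Hspa1b ratio (1.03 thinned), over classical monocytes Dcn (-0.35) without mixed barcodes and Rom1 (-0.41 likewise, -1.11 with at least 3 UMIs of the gate genes), and over cells with Fabp4 Hba-a1 and Hba-a2 (-5.61 to 0.056 and -4.97 to 1.25 when a library is left out, the positive values without KO), Hbb-bs (0.33 without other-type barcodes) and Pdc (0.032 with up to 1 UMI of Fabp4, 2.81 without doublets). Of the other log2 folds over classical monocytes and alternatives, 771 kept direction and side of the threshold and 87 kept direction but did not pass; over cells with Fabp4 these were 313 and 222. Without a library no residual degrees of freedom remain, so those are values with no test, of which 144 of 144 over classical monocytes and 90 of 92 over cells with Fabp4 kept their direction.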
